A study of Mus musculus with 6 samples.

Results

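The genes described are 10 CXC chemokines of the mouse, Cxcl1, Cxcl2, Cxcl3, Cxcl5, Cxcl9, Cxcl10, Cxcl11, Cxcl13, Cxcl14 and Cxcl16, chosen by name from the family without Cxcl12, Ppbp and Pf4. All 10 were found among the 39017 gene identifiers of the count table, and 9 passed the filter on low counts and were tested, Cxcl13 being the exception. RNA was sequenced from adherent bone marrow cells that the submitters call macrophages and describe as F4/80+ CD169+. There were 3 libraries from old wild-type BALB/c mice, more than 78 weeks of age, and 3 from young wild-type BALB/c mice, 3 weeks of age. Both ages were handled alike: marrow from crushed limb bones was plated, floating cells were washed off, attached cells were expanded in medium with fetal bovine serum, and 10000 cells made each library. Nothing in the labels says whether libraries of one age came from separate mice, so a p-value here covers only how much these libraries vary, which may be technical.

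CXC chemokines are small secreted proteins that steer leukocytes through receptors of the G protein-coupled family, and their name comes from a pair of cysteines with another residue between them. Members with the residues glutamate, leucine and arginine (ELR) just before that pair attract neutrophils through Cxcr2. Members induced by interferon-gamma lack ELR and attract activated T and NK cells through Cxcr3. Cxcl13 draws B cells through Cxcr5 and builds lymphoid follicles, Cxcl14 is made constitutively by many epithelial and connective tissue cells, and Cxcl16 is made as a membrane-anchored protein that binds Cxcr6 and is shed by proteases. In marrow such proteins are made by macrophages, by stromal cells and by the cells of the blood vessel wall.

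The coding sequence of 10 codons around the cysteine pair is shown for the 9 members for which it could be placed, because it carries the feature that splits the family. Capitals mark the 3 codons just before the first cysteine, and they encode ELR in Cxcl1, Cxcl2, Cxcl3 and Cxcl5 and in none of the other 5. The windows were read from GENCODE M21 transcripts on the coding strand (GRCm38, the mm10 build, from the C57BL/6J strain). Each lies in coding exon sequence, all in exon 2 but that of Cxcl14, which joins exon 1 to exon 2.
Cxcl1: gccaatGAGCTGCGCtgtcagtgcctgcag
Cxcl2: gccagtGAACTGCGCtgtcaatgcctgaag
Cxcl3: gccagtGAGCTGCGCtgtcagtgcctgaac
Cxcl5: gcaacgGAGCTGCGTtgtgtttgcttaacc
Cxcl9: ataaggAATGCACGAtgctcctgcatcagc
Cxcl10: gcaaggACGGTCCGCtgcaactgcatccat
Cxcl13: tacacaAACTTAAAAtgtaggtgttctgga
Cxcl14: gtggacGGGTCCAAGtgtaagtgttcccgg
Cxcl16: agtgtcGCTGGAAGTtgttcttgtgatcgt
The positions are chr5:90891481-90891510 for Cxcl1, chr5:90904127-90904156 for Cxcl2, chr5:90786353-90786382 for Cxcl3 and chr5:90759712-90759741 for Cxcl5. They are chr5:92326836-92326865 for Cxcl9, chr5:92348175-92348204 for Cxcl10, chr5:95958649-95958678 for Cxcl13, chr13:56295909-56296116 for Cxcl14 and chr11:70459121-70459150 for Cxcl16.

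The old libraries had 43367734, 38030342 and 36136137 counts and the young ones 34391206, 34597583 and 35813492. Levels are CPM, read counts scaled for library size after TMM normalization, given for replicates 1, 2 and 3 in that order, and adjusted p-values come from edgeR over 15567 tested genes. Macrophage markers were present in every library, but cells of other kinds contributed as well. The 12 macrophage markers summed to 1706 to 1962 CPM in old libraries and 3133 to 3458 CPM in young ones. By edgeR at an adjusted p under 0.05, 10 of the 12 were lower and 1, Vsig4, was higher. Among all tested genes 4.70% were called lower and 5.84% higher. No marker was at 0 in all 6 libraries, but Vsig4 had 0 counts in young replicate 1. Type I collagen genes took 1.80% to 2.25% of counts in old libraries and 2.66% to 5.44% in young ones, the highest share being that of young replicate 3. In bulk RNA, fewer cells of a type and less RNA per cell cannot be told apart.

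The family split by age in both directions. Of the 9 tested members, 3 were higher in old libraries (Cxcl3, Cxcl5 and Cxcl14), 3 were lower (Cxcl9, Cxcl10 and Cxcl16) and 3 did not pass the threshold of 0.05. Among all tested genes 5.84% were called higher, 4.70% lower and 10.5% either way. For 7 of the 9 the old and young ranges were apart, as they were for 30.2% of all tested genes. These counts describe the 9 that passed the filter and were not tested as a group. The median log2 fold change was -0.66 over the 9 members and -0.01 over all tested genes. On leaving out 1 library, the number called higher lay between 1 and 2 and the number called lower between 0 and 4. Cxcl14 is the member whose call was kept without each of the 6 libraries.

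**Figure D1:**
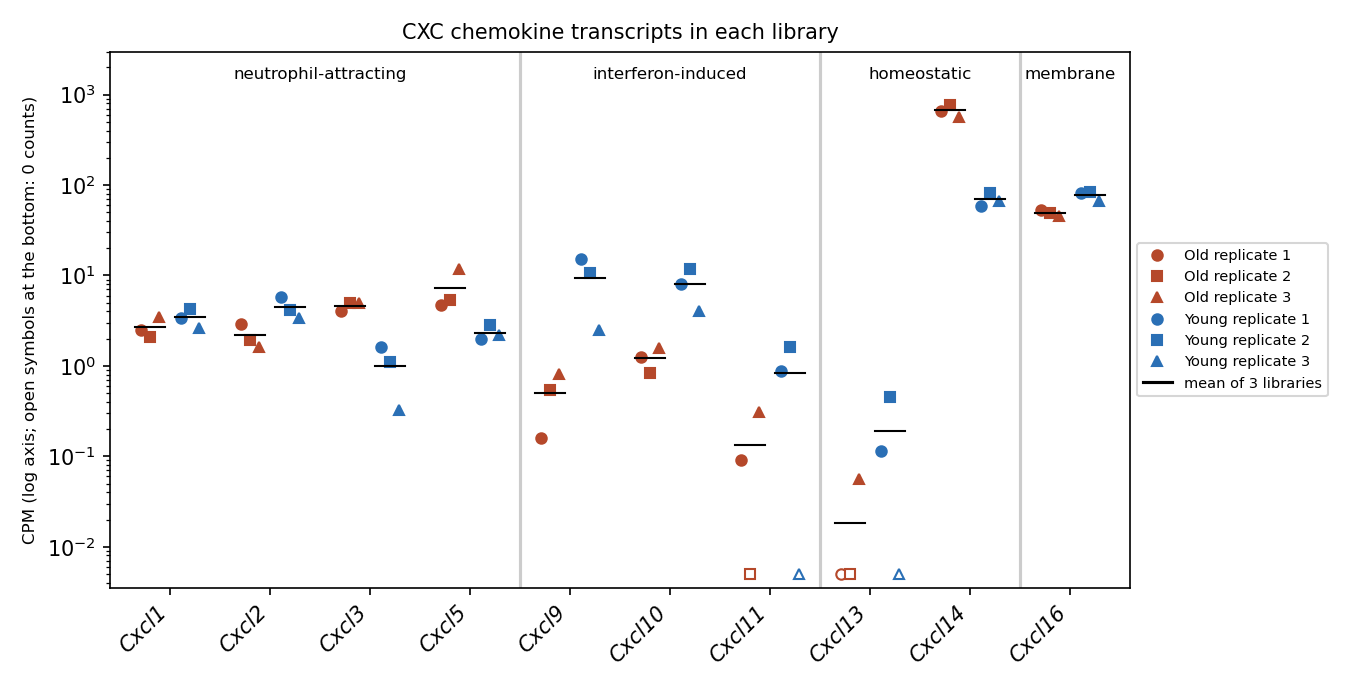
CPM of the 10 CXC chemokine genes in each library on a log axis, old libraries left of young ones within each gene, with the mean of 3 libraries as a bar and libraries with 0 counts as open symbols at the bottom. Cxcl14 lies at 566 to 777 CPM in old libraries and 59.2 to 82.6 CPM in young ones, far above the other members of the old libraries.

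**Figure D2:**
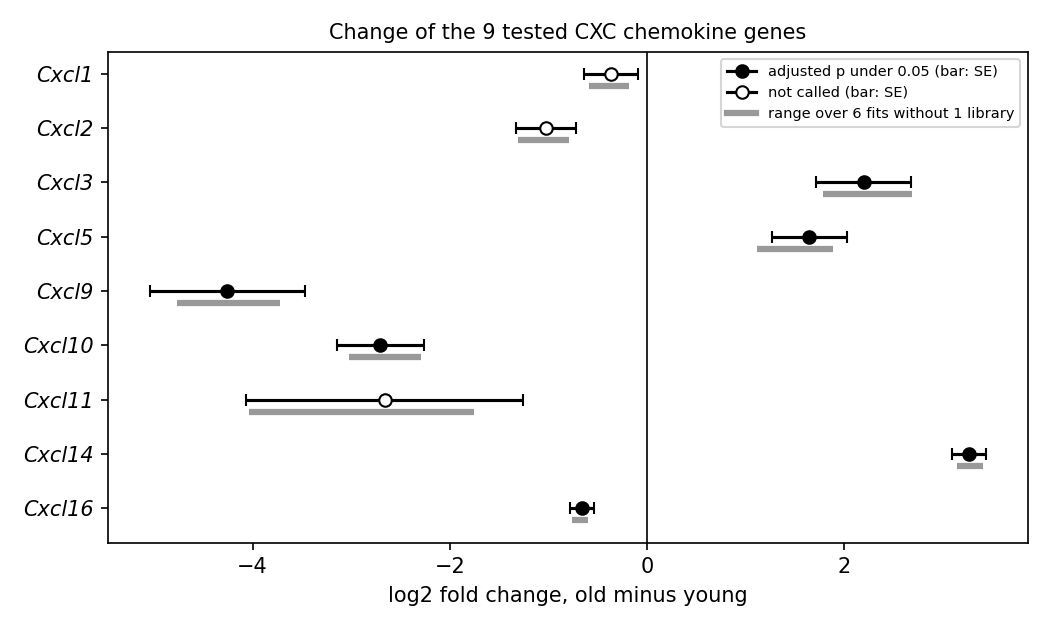
Log2 fold change (old minus young) of the 9 tested genes with its SE, and below it in grey the range of the estimate over the 6 fits that leave out 1 library. Filled points passed an adjusted p of 0.05. Cxcl3, Cxcl5 and Cxcl14 lie to the right of 0 and the other 6 to the left, and no grey range crosses 0.

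Compared per kilobase of exon, the order of levels changed with age below the first 2 places. The exon length merges all annotated transcripts of a gene. For Cxcl1, Cxcl2, Cxcl3 and Cxcl10 it equals the whole gene, introns included, so the order between members rests on these lengths. Cxcl14 was the most abundant member at both ages, at 366 ± 57.9 CPM per kb in old libraries and 38.0 ± 6.55 in young ones (SD, n = 3 each). Cxcl16 came second, at 16.2 ± 1.28 CPM per kb in old libraries and 25.7 ± 3.31 in young ones. In old libraries Cxcl5 came next, with 2.55 to 6.35 CPM per kb, and its range lay above those of Cxcl1, Cxcl3 and Cxcl2, whose ranges overlapped one another between 0.792 and 1.85. Cxcl10 followed at 0.369 to 0.703 and Cxcl9 at 0.0529 to 0.267 CPM per kb. Before division by length, the old ranges of Cxcl5 (4.74 to 11.8 CPM) and Cxcl3 (4.04 to 4.996 CPM) overlapped. In young libraries the next places were held by Cxcl10, Cxcl9, Cxcl2, Cxcl1 and Cxcl5, each overlapping its neighbour in that order. Cxcl3 followed, at 0.0934 to 0.457 CPM per kb. Cxcl11 and Cxcl13 were the last at both ages. Of the summed level of the family per kb, Cxcl14 made up 92.1% to 94.8% in old libraries and 43.4% to 55.9% in young ones.

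The neutrophil-attracting members did not move together. These 4 genes lie within 147 kb on chromosome 5, and the pair at one end, Cxcl5 and Cxcl3, rose while the pair at the other end, Cxcl1 and Cxcl2, did not pass. Cxcl3 (ENSMUSG00000029379, chr5:90786103-90789600, + strand), a ligand of Cxcr2, had 177, 190 and 180 counts in old libraries and 56, 39 and 11 in young ones. That is 4.04, 4.93 and 4.996 CPM in old libraries, against 1.60, 1.10 and 0.327 CPM in young libraries. All old values lay above all young ones, and young replicate 3 was the lowest. On the log2 scale the difference was 2.20 with SE 0.48 (adjusted p = 0.0309, edgeR). Fits without young replicate 2 (adjusted p = 0.0823) or without old replicate 1, 2 or 3 (adjusted p = 0.0861, 0.103 and 0.0919) did not pass.

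Cxcl5 (ENSMUSG00000029371, chr5:90759360-90761624, + strand), a ligand of Cxcr2 that connective tissue and epithelial cells make, had 208, 208 and 426 counts in old libraries and 70, 100 and 73 in young ones. In CPM these were 4.74, 5.40 and 11.8 in old libraries, against 2.00, 2.83 and 2.17 in young libraries. The ages did not overlap, and old replicate 3 stood above the other old libraries. Its log2 difference was 1.65, SE 0.38 (adjusted p = 0.0365, edgeR), and 1.12 without old replicate 3. The call held without old replicate 1 (adjusted p = 0.0481) and was lost without each other library, with adjusted p of 0.121, 0.0726 and 0.0686 without young replicate 1, 2 and 3 and of 0.0653 and 0.0511 without old replicate 2 and 3.

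Cxcl1 (ENSMUSG00000029380, chr5:90891241-90893115, + strand), the main neutrophil attractant of mouse tissue with Cxcl2, had 2.49, 2.102 and 3.47 CPM in old libraries and 3.42, 4.27 and 2.64 CPM in young ones. The ages overlapped, and the log2 fold change of -0.36 with SE 0.27 did not pass (adjusted p = 0.503, edgeR). Cxcl2 (ENSMUSG00000058427, chr5:90903871-90905938, + strand), which macrophages release after contact with bacterial products, had 2.94, 1.95 and 1.64 CPM in old libraries, against 5.79, 4.10 and 3.42 CPM in young libraries. The ages did not overlap, yet its log2 fold change of -1.02 with SE 0.30 did not pass over all genes (adjusted p = 0.0817, edgeR). It passed without young replicate 3 (adjusted p = 0.0452).

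The contrast between Cxcl3 and Cxcl2 is plainest in their ratio within a library. There were 1.37, 2.53 and 3.05 Cxcl3 counts for each Cxcl2 count in old libraries, against 0.276, 0.269 and 0.0957 in young libraries. Cxcl5 counts were 1.91, 2.57 and 3.41 times those of Cxcl1 in old libraries and 0.583, 0.662 and 0.820 times in young ones. Both ratios were chosen after the values were seen and were not tested. Transcripts of Cxcl2 and Cxcl3 share an exact run of 157 bases, longer than a read of 100 bases, so reads within it could be given to either gene or to none. No run shared by any other pair of the 10 members exceeded 49 bases.

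The first 250 bases upstream of the annotated starts of Cxcl3 and Cxcl2 are printed because both genes are known NF-kB targets, and one was higher in old libraries while the other had a lower mean there (RefSeq, GRCm38.p6, + strand, chr5:90785851-90786100 for Cxcl3 and chr5:90903649-90903898 for Cxcl2). Capitals mark matches to the 10-base NF-kB consensus on either strand, here 2 overlapping matches in each.
Cxcl3: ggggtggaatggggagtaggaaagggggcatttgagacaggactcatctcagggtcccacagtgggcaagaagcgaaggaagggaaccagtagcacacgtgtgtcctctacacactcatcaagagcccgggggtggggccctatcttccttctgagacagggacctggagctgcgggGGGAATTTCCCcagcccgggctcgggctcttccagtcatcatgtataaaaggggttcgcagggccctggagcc
Cxcl2: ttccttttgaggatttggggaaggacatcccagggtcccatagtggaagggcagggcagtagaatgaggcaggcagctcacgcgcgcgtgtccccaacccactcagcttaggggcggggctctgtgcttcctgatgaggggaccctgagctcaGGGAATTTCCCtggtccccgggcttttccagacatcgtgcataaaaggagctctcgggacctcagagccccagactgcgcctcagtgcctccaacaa
The marked run is the same 11 bases in both and also in Cxcl1, and it starts 73 bases before the start of Cxcl3, 97 before that of Cxcl2 and 71 before that of Cxcl1. A match occurred in 8.46% of the 32851 promoter windows of 300 bases, and it is a match of letters only. Promoters were at hand for 7 of the 10 members.

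Between Cxcl5 and Cxcl3 on the chromosome lie Ppbp and Pf4, chemokine genes of platelets, which are not counted among the 10. Both were higher in old libraries, Ppbp at 28.9, 72.1 and 22.5 CPM in old libraries against 0.114, 1.58 and 0.802 CPM in young libraries. Its log2 fold change was 5.62 (adjusted p = 0.00551, edgeR), between 4.94 and 6.49 with 1 library left out, and it did not pass without young replicate 3 (adjusted p = 0.0525). Pf4 averaged 189 ± 1.34 CPM in old libraries and 53.0 ± 14.1 CPM in young ones (SD, n = 3 each), a log2 fold change of 1.84 (adjusted p = 0.00146, edgeR). The 4 genes of this end of the cluster, whose starts lie within 26.7 kb, all passed as higher, as the plot along the cluster shows. The megakaryocyte marker list, which holds Ppbp and Pf4, summed to 252 to 376 CPM in old libraries and 68.5 to 106 CPM in young ones. Of its 6 members 4 were higher, as were 5.84% of all tested genes. The list's part in the change of Cxcl3 and Cxcl5 was not tested. Neutrophil markers summed to 898 to 1690 CPM in old libraries and 1329 to 2309 CPM in young ones. Of these markers 0 of 8 passed with edgeR, where 10.5% of all tested genes did.

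**Figure D3:**
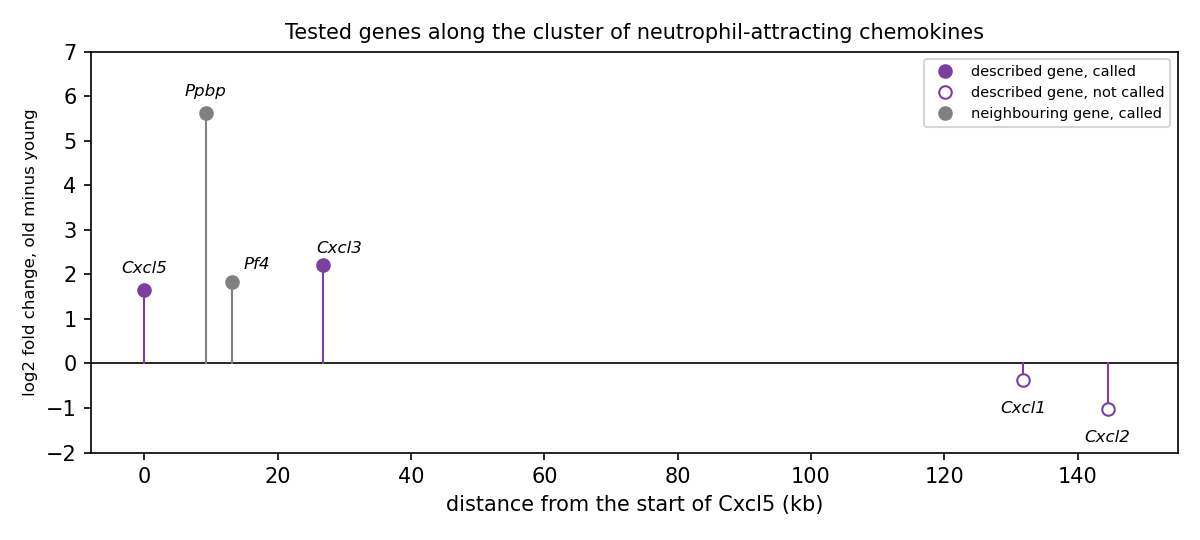
Log2 fold change (old minus young) of each tested gene in the chromosome 5 cluster against the distance of its first base from that of Cxcl5, in kb, with filled points for genes past an adjusted p of 0.05. Cxcl5, Ppbp, Pf4 and Cxcl3 stand above 0 within the first 26.7 kb, and Cxcl1 and Cxcl2 stand below 0, uncalled, at 132 and 145 kb.

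Cytokines and bacterial products switch on Cxcl1 to Cxcl5 through a route of which 20 genes were listed and tested. Of these 3 were higher, 1 was lower and 16 did not pass, where 10.5% of all tested genes were called either way, with a median log2 fold change of -0.20. Il1r1, the signalling receptor of interleukin 1, rose to 72.0 ± 4.49 CPM in old libraries, against 26.5 ± 4.30 CPM in young libraries (SD, n = 3 each, adjusted p = 0.00124, edgeR). Il1rn, which encodes the antagonist of that receptor, rose to 519 ± 57.0 CPM in old libraries, against 186 ± 31.7 CPM in young libraries (adjusted p = 0.00146, edgeR). The tumour necrosis factor receptor gene Tnfrsf1a was higher as well (log2 fold change 0.42, adjusted p = 0.0382, edgeR), but of the fits with 1 library left out it passed in that without young replicate 3 alone, the others reaching an adjusted p of up to 0.144. Tlr2, a receptor of bacterial lipoproteins, was lower (log2 fold change -1.04, adjusted p = 0.0162, edgeR), a call that also held only without young replicate 3 (adjusted p otherwise up to 0.0643).

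The 3 interferon-induced members had lower mean levels in old libraries, and 2 of them passed. They sit beside one another on the minus strand within 44.1 kb of chromosome 5. Cxcl9 (ENSMUSG00000029417, chr5:92321347-92328079), which responds almost solely to interferon-gamma, had 7, 21 and 29 counts in old libraries and 539, 374 and 85 in young ones. In CPM these were 0.160, 0.545 and 0.805 in old libraries, against 15.4, 10.6 and 2.53 in young libraries. The ages did not overlap, and young replicate 3 was the lowest of its age by a wide margin. The log2 difference came to -4.26 (SE 0.79), a 19.1-fold difference (adjusted p = 0.0162, edgeR). It did not pass in fits without young replicate 1 (adjusted p = 0.0501), old replicate 1 (0.0636) or old replicate 2 (0.0750).

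Cxcl10 (ENSMUSG00000034855, chr5:92346638-92348889), which both type I and type II interferon induce, had 55, 32 and 57 counts in old libraries and 280, 421 and 135 in young ones. That is 1.25, 0.831 and 1.58 CPM in old libraries, against 7.99, 11.9 and 4.01 CPM in young libraries. The ages did not overlap, and young replicate 3 was again the lowest of its age. The log2 difference came to -2.70 (SE 0.44), a 6.51-fold difference (adjusted p = 0.0103, edgeR), which did not pass in fits without old replicate 1 (adjusted p = 0.0539) or old replicate 2 (0.0502). Cxcl10 shares 5.91% of its exon length with Art3, a gene on the other strand that was itself lower (log2 fold change -2.19, adjusted p = 0.0423, edgeR), and the library kit does not mark strand.

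Cxcl11 (ENSMUSG00000060183, chr5:92359544-92365485), the third Cxcr3 ligand, had 4, 0 and 11 counts in old libraries and 31, 57 and 0 in young ones. The ages overlapped, since young replicate 3 had none, and the log2 fold change of -2.66 with SE 1.41 did not pass (adjusted p = 0.317, edgeR). Without young replicate 2 it was -1.75 and without old replicate 3 it was -4.04. A count of 0 allows up to 3 counts, or 0.0779 CPM in old replicate 2 and 0.0891 CPM in young replicate 3, by counting error only. The reference annotation calls Cxcl11 a polymorphic pseudogene, since the C57BL/6 copy is disrupted, and 41.7% of its exon length is shared with the pseudogene Gm2673, which had 0 counts in each library. BALB/c mice carry an intact Cxcl11.

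The upstream 250 bases of Cxcl9 and Cxcl10 are printed because these neighbours were lower together (RefSeq, GRCm38.p6, minus strand, chr5:92328080-92328329 for Cxcl9 and chr5:92348890-92349139 for Cxcl10). Capitals mark the interferon-stimulated response element core GAAANNGAA and, in Cxcl10, further on, the NF-kB consensus.
Cxcl9: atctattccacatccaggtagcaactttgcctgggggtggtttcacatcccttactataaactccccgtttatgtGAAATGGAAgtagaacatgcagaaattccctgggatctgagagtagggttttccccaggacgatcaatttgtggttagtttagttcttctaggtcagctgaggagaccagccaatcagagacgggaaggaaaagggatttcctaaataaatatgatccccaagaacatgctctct
Cxcl10: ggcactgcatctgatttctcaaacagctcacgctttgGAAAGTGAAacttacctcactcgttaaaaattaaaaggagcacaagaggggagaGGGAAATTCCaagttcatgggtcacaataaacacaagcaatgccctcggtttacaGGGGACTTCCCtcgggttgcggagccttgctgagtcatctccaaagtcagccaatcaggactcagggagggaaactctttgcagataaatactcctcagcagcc
The core begins 175 bases before the start of Cxcl9 and 213 bases before that of Cxcl10, and it was found on either strand in 8.56% of all windows. The NF-kB consensus has 4 matches in Cxcl10, of which 3 overlap, and none in Cxcl9. The motif TTCNNNGAA, the core of gamma-activated sites, was in neither window and in 8.30% of all windows. The window of Cxcl13 held none of the 3 motifs. The matches named here are of letters only.

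The genes of the interferon route moved in both directions. Of the 14 tested genes reported here 2 were lower (Irf7 and Irf8), 2 were higher (Jak1 and Ifngr1) and 10 did not pass, with a median log2 fold change of -0.20. Among all tested genes 4.70% were called lower and 5.84% higher. Irf7, which amplifies type I interferon, had a log2 fold change of -0.93 (adjusted p = 0.0292, edgeR), which passed with 1 library left out in the fits without young replicate 3 or old replicate 3 alone (adjusted p otherwise up to 0.117). Irf8, a macrophage transcription factor, had 76.0, 73.0 and 84.5 CPM in old libraries and 121, 122 and 91.3 CPM in young ones (log2 fold change -0.52, adjusted p = 0.0483, edgeR), and with 1 library left out it passed in the fit without young replicate 3 alone (adjusted p otherwise up to 0.177). The kinase gene Jak1 (log2 fold change 0.62, adjusted p = 0.0163) and the receptor gene Ifngr1 (0.33, adjusted p = 0.0326) were higher by edgeR. With 1 library left out, Jak1 passed in the fits without young replicate 1 or 3 (adjusted p otherwise up to 0.0706) and Ifngr1 in that without young replicate 3 (otherwise up to 0.140).

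Ifng itself, the cytokine that T and NK cells release, had 0, 0 and 0 counts in old libraries and 39, 7 and 2 in young ones, too few for the test, and 25.9% of its exon length is shared with Gm49751. T and NK cell markers summed to 4.24, 4.31 and 9.63 CPM in old libraries and 22.9, 26.2 and 15.2 CPM in young ones. Of the 9 markers 6 were tested and 1 was called, Cd4, which was lower and which some macrophages also carry. Of all tested genes 10.5% were called either way. The markers Cd8a and Klrb1c stayed under 1 CPM in each library. Young replicate 3 was the lowest young library in Ifng and in all 3 chemokines, and in this sum. The part of these cells in the change of Cxcl9 and Cxcl10 was not tested.

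**Figure D4:**
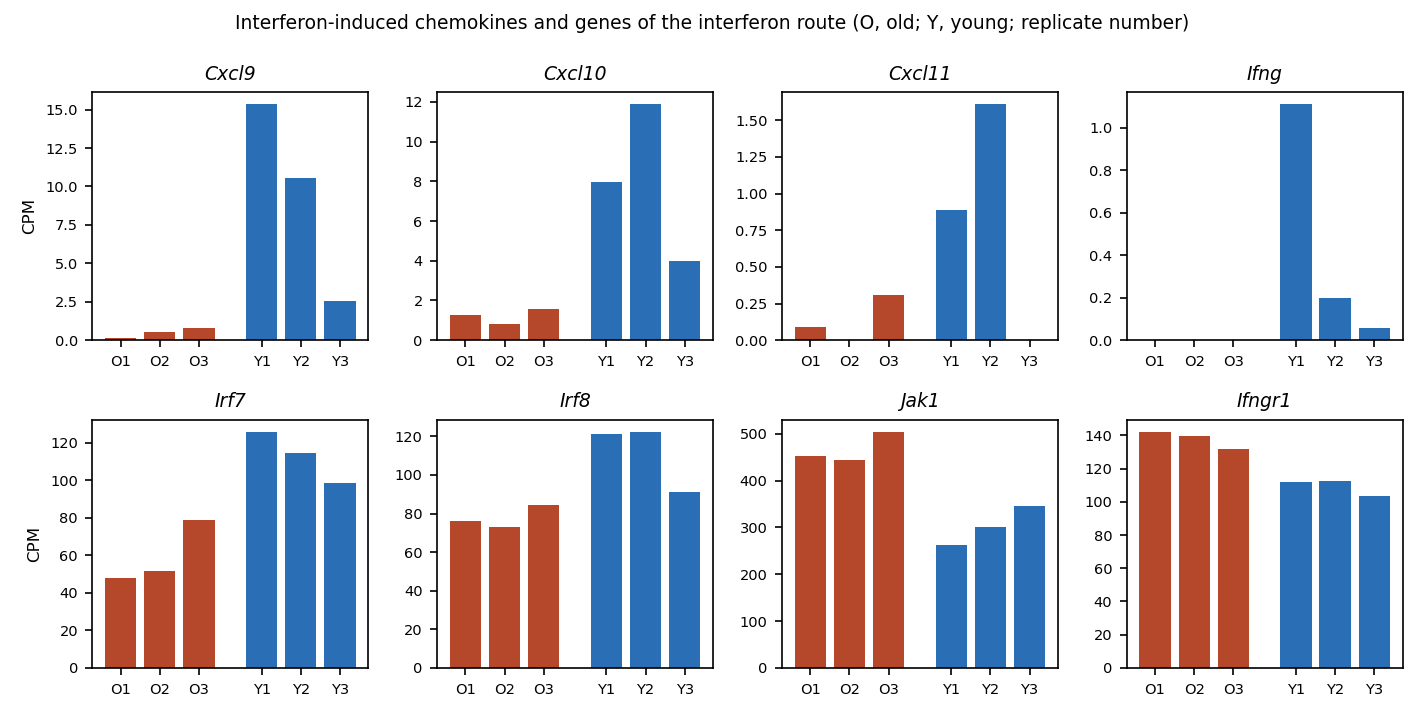
CPM in each library (bars, from 0) of Cxcl9, Cxcl10 and Cxcl11 in the upper row with Ifng, and of Irf7, Irf8, Jak1 and Ifngr1 in the lower row, old libraries (O) left of young ones (Y). Young replicate 3 is the lowest young bar for the 3 chemokines, Irf7 and Irf8, while Jak1 and Ifngr1 stand higher in each old library than in any young one.

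The 2 homeostatic members lay at opposite ends of the range of levels. Cxcl14 (ENSMUSG00000021508, chr13:56288643-56296551, minus strand) had 28993, 29943 and 20394 counts in old libraries and 2076, 2922 and 2244 in young ones. In CPM these were 661, 777 and 566 in old libraries, against 59.2, 82.6 and 66.7 in young libraries, with no overlap. The log2 difference came to 3.26 (SE 0.17, adjusted p = 0.000341, edgeR), and it lay between 3.14 and 3.41 on leaving out 1 library, with adjusted p up to 0.00437. By mean CPM it ranked 151 among all identifiers in old libraries and 3245 in young ones. The stromal chemokine Cxcl12, a family member outside the 10, was higher too, at 1536, 1403 and 1593 CPM in old libraries and 463, 641 and 661 CPM in young ones (log2 fold change 1.36, adjusted p = 0.00224, edgeR). There were 0.431, 0.554 and 0.355 counts of Cxcl14 for each count of Cxcl12 in old libraries, against 0.128, 0.129 and 0.101 in young libraries. This ratio was higher in each old library and was not tested.

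The upstream 250 bases of Cxcl14 are shown as those of the member with the highest level (RefSeq, GRCm38.p6, minus strand, chr13:56296552-56296801). Capitals mark a match of TTCNNNGAA that starts 191 bases before the annotated start and a match of GAAANNGAA that starts 172 bases before it.
Cxcl14: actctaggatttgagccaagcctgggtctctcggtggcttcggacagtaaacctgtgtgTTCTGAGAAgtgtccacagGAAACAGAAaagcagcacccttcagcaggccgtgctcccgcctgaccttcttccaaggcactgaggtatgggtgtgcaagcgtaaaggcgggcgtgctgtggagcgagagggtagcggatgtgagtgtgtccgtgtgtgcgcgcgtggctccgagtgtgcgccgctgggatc
The window held no match to the NF-kB consensus. The response element core was also matched in the windows of Cxcl9 and Cxcl10, and in 8.56% of all windows. Matches here are of letters only, and their part in any change was not tested.

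Cxcl13 (ENSMUSG00000023078, chr5:95956951-95961068, + strand), named in the series title with its receptor Cxcr5, was at the limit of detection. It had 0, 0 and 2 counts in old libraries and 4, 16 and 0 in young ones, which is 0, 0 and 0.0555 CPM in old libraries and 0.114, 0.452 and 0 CPM in young libraries. The ages overlapped, and old replicate 3 was above young replicate 3. The difference of means was -0.170 CPM (exact two-sided permutation test, p = 0.4, the smallest possible with 3 against 3 being 0.1). Fitted by edgeR with no filter on low counts, its log2 difference came to -3.20 (SE 1.80, adjusted p = 0.416). Of 11 tested genes of the lymphotoxin and non-canonical NF-kB route, which switches on Cxcl13 in lymphoid tissue, 1 was higher and 0 were lower. The other 10 did not pass, and 10.5% of all tested genes were called either way. The higher one was Tnfsf11, the osteoclast factor RANKL, at 12.4 ± 1.31 CPM in old libraries and 4.78 ± 0.923 CPM in young ones (SD, n = 3 each, adjusted p = 0.00495, edgeR).

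Cxcl16 (ENSMUSG00000018920, chr11:70453983-70459984, minus strand), which also serves macrophages as a receptor for oxidized lipoprotein, had 52.9, 49.2 and 45.2 CPM in old libraries, against 82.1, 84.5 and 66.2 CPM in young libraries. The ages did not overlap, and the log2 difference came to -0.66 (SE 0.12, adjusted p = 0.0151, edgeR). It did not pass in fits without young replicate 1 (adjusted p = 0.0563), young replicate 2 (0.0503), old replicate 2 (0.0681) or old replicate 3 (0.0619). Of its exon length 18.3% is shared with Zmynd15. Of all tested genes 10.5% were called either way. Of 9 genes for proteases that cleave chemokines 2 were higher, 1 was lower and 6 did not pass. Adam17, which sheds membrane proteins, was the lower one, at 124 ± 7.47 CPM in old libraries and 156 ± 6.96 CPM in young ones (SD, n = 3 each, adjusted p = 0.0379, edgeR), a call that held only without young replicate 3 (adjusted p otherwise up to 0.162). Adam10, which also releases Cxcl16, was not called (log2 fold change -0.12). The neutrophil collagenase Mmp8 (log2 fold change 1.41, adjusted p = 0.00251) and Dpp4, which trims the amino terminus of Cxcl9 to Cxcl11 (1.64, adjusted p = 0.0321), were higher by edgeR. Dpp4 had at most 1.72 CPM in any library, and with 1 library left out it passed in the fits without young replicate 2 or 3 (adjusted p otherwise up to 0.119).

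Set against the macrophage markers instead of all counts, some members still separated by age and others did not. Each member's CPM was divided by the summed CPM of the 12 macrophage markers and is given per 1000 CPM of markers, as a description with no test. Cxcl16 came to 27.0, 26.4 and 26.5 in old libraries and 23.8, 24.8 and 21.1 in young ones, so its order reversed, and the ratio of means was 1.15 against 0.632 in CPM. Cxcl2 came to 1.4996, 1.05 and 0.960 in old libraries and 1.67, 1.20 and 1.09 in young ones, which overlapped. Cxcl1 also turned round, with a ratio of means of 1.44 against 0.779 in CPM, and its ages overlapped.

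Cxcl9 and Cxcl10 remained lower on that scale with no overlap. Cxcl9 came to 0.0814, 0.293 and 0.472 per 1000 CPM of markers in old libraries and 4.45, 3.10 and 0.806 in young ones. Cxcl10 came to 0.639, 0.446 and 0.927 in old libraries and 2.31, 3.49 and 1.28 in young ones. Cxcl14, at 332 to 417 in old libraries and 17.1 to 24.2 in young ones, and Cxcl3 and Cxcl5 remained higher with no overlap. Divided by 9 stromal markers without Cxcl12 in place of the macrophage markers, Cxcl9, Cxcl10, Cxcl3, Cxcl5 and Cxcl14 again kept their directions with no overlap. The gap was narrow for Cxcl10, at 0.0567 in old replicate 1 against 0.0590 in young replicate 3. For Cxcl9 it lay between 0.0286 in old replicate 3 and 0.0372 in young replicate 3. The stromal sum is mostly collagen. Col1a1, Col1a2 and Col3a1 made up 96.1% to 96.5% of it in old libraries and 97.8% to 98.8% in young ones. Young replicate 3 had the highest stromal sum. Of the other stromal markers Pdgfra was higher (log2 fold change 1.23) and Lepr and Lum were lower (-0.73 and -3.14). For Cxcl16 the ratio of means was 0.999 on that scale, with overlap. Divided by the 6 leukocyte markers, Cxcl16 stayed lower, at 43.2, 41.1 and 39.0 per 1000 CPM of markers in old libraries and 54.4, 49.9 and 43.8 in young ones, with no overlap and a ratio of means of 0.832. The marker sums themselves changed with age, and single markers may change for their own reasons.

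**Figure D5:**
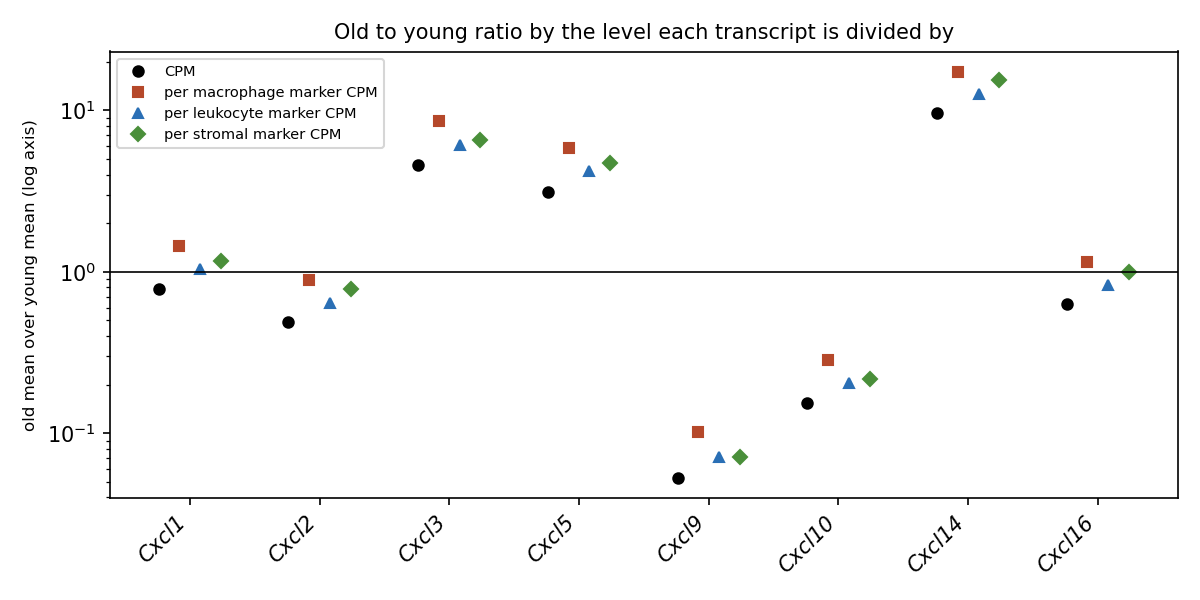
Ratio of the old mean to the young mean, on a log axis, for 8 members in CPM and after division by the summed CPM of macrophage, leukocyte or stromal markers in each library. Cxcl3, Cxcl5 and Cxcl14 stay above 1 and Cxcl9 and Cxcl10 below 1 on each scale, while Cxcl1 and Cxcl16 lie on both sides of 1.

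Of the 8 receptors and scavengers of CXC chemokines listed, 6 were tested, 2 were higher, 1 was lower and 3 did not pass. Among all tested genes 10.5% were called either way. Ackr3, which binds and removes Cxcl12 and Cxcl11 without G protein signalling, rose to 43.5, 40.6 and 40.8 CPM in old libraries, against 5.59, 3.34 and 4.55 CPM in young libraries (log2 fold change 3.21, adjusted p = 0.000422, edgeR). Cxcr3, the receptor of Cxcl9 to Cxcl11, had 1.69, 1.74 and 1.499 CPM in old libraries and 3.22, 3.93 and 2.85 CPM in young ones (log2 fold change -1.02, adjusted p = 0.0269, edgeR), a call that held only without young replicate 3 (adjusted p otherwise up to 0.0951). Cxcr5, at 0.661, 0.831 and 1.44 CPM in old libraries and 0.285, 0.198 and 0.119 CPM in young ones, was called higher (log2 fold change 2.26, adjusted p = 0.0341, edgeR) and lost the call without any 1 library (adjusted p 0.0607 to 0.129). B cell markers, where Cxcr5 is usually found, summed to 113 to 127 CPM in old libraries and 53.3 to 71.1 CPM in young ones. Of the 6 tested B cell markers 5 were higher, as were 5.84% of all tested genes, and Pax5 stayed under 1 CPM throughout. The part of these markers in the Cxcr5 change was not tested. The receptor of the neutrophil-attracting members, Cxcr2, at 0.727 to 1.55 CPM in old libraries and 0.951 to 2.66 CPM in young ones, and that of Cxcl16, Cxcr6, at 2.42 to 3.86 CPM in old libraries and 4.16 to 9.70 CPM in young ones, did not pass (adjusted p = 0.387 and 0.0548, edgeR).

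The genes whose pattern over the 6 libraries was most like a member's are given as a description, from 10506 tested genes with a mean of at least 5 CPM and Pearson's r of log2(CPM + 1). Each r rests on 6 libraries and those named are the highest of 10506, so a value near 1 was not taken as shared control. For Cxcl14 they were Il11ra1, a receptor gene for interleukin 11 with a close copy in the mouse genome (r = 0.9998), the metalloreductase gene Steap2 (r = 0.9992) and the poly(A) polymerase gene Tent5b (r = 0.9992). These separate by age as Cxcl14 does, over a narrower range, from 94.6 to 101 CPM in old libraries and 54.3 to 58.6 CPM in young ones for Il11ra1. For Cxcl10 they were the scavenger receptor gene Msr1 (r = 0.9960) and the interferon-stimulated genes Oas1g (r = 0.9953) and Ifit3b (r = 0.9943). Their log2 fold changes were -0.42, -0.65 and -1.48, against -2.70 for Cxcl10. For Cxcl9 they were Cdc37l1 (r = 0.9958), Rlf (r = 0.9934) and H2-T23, a nonclassical MHC class I gene (r = 0.9910), each lowest among young libraries in replicate 3. These changed far less than Cxcl9, with log2 fold changes of -0.36, -0.40 and -0.78 against -4.26. Cdc37l1 and Rlf did not pass. For Cxcl1 they were the granule protease gene Elane of early neutrophils (r = 0.9923), St13 (r = 0.9912) and Mxd1 (r = 0.9855), and Elane had 40.9, 33.3 and 68.1 CPM in old libraries and 74.4, 104 and 42.1 CPM in young ones.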

How the data were processed

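RNA of 6 libraries, 3 of each age, was sequenced. Per the labels' protocols, RNA of 10000 cells was amplified with a low-input kit, which does not mark strand, and sequenced as pairs of 100-base reads. The deposited values are whole-number read counts per Ensembl gene. STAR 2.6.1a, HISAT2 2.1.0, StringTie 1.3.4d and the mm10 build are named, per the submitters' processing notes. Which program counted, on which annotation, and how it handled reads with several matches is not given in the sources used here. Because reads were amplified and carry no molecular identifiers, limits on counts cover counting error only.

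Tests on the counts used edgeR 4.0.16 in R 4.3.3 (filterByExpr, TMM, robust quasi-likelihood test, Benjamini-Hochberg adjustment over 15567 genes, threshold 0.05, no replicate block). The test was checked on simulated data. SE is the absolute log2 fold change over the square root of F. Cxcl13 failed the filter and was tested by exact permutation of CPM (scipy 1.17.1). Exon lengths, overlaps and coding windows, shown in place of planned protein features, came from GENCODE M21, and promoters from RefSeq. The members, the gene lists and the rule for names were chosen with earlier results of these data known. Of each pathway list, up to 4 called genes with the smallest p are named, and other genes only as members of a list or as neighbours of a member. Alternatives were DESeq2 1.42.0 size factors and test, limma-voom (limma 3.58.1), 2 other filters, a replicate block and leaving out each library. Of the interferon list, 1 gene is not reported here.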

Additional observations from a re-analysis of the deposited data

How the results depend on the processing

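Over the alternatives run, each of the 9 tested members kept its direction, and DESeq2 size factors and the 2 other filters changed no call among the members tested under them, Cxcl11 failing the stricter filter. Cxcl14 passed in each of 12 alternatives. With all libraries, members called higher numbered 3, but 2 with limma-voom and 1 with the replicate block. Under that block Cxcl3 (adjusted p = 0.0538, edgeR), Cxcl5 (0.0544) and Cxcl9 (0.0746) lost the call and Cxcl2 gained it (0.0375). With limma-voom Cxcl5 (adjusted p = 0.0685) and Cxcl9 (0.0815) lost the call, and with the DESeq2 test Cxcl2 gained it (0.0234). The cause was not tested. The labels do not say whether replicate numbers pair the libraries. Deviations of same-numbered libraries correlated at 0.0883, 0.0340 and 0.0900. Each library correlated best with that of its own number, a hint from the data and not the design. On leaving out 1 library, members called higher ranged from 1 to 2 and lower from 0 to 4, where 3 and 3 were called with all libraries. All genes called higher ranged from 418 to 1459 (909 with all libraries) and lower from 294 to 1168 (731), the highest counts being those without young replicate 3. The DESeq2 test called 1137 genes lower. The difference of mean CPM of Cxcl13 ranged from -0.265 to -0.0386 on leaving out 1 library. Cxcl11 and Cxcl13 had 0 to 57 counts in a library and varied widely within each age, and no difference between the ages was detected for either.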
